A study of Mus musculus with 16 samples.

Results

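Interferon-stimulated genes, the genes that cells switch on when they sense interferon, were followed through the cortex of mice with tau pathology and 2, 1 or 0 copies of Trem2. The set held 39 genes chosen by symbol from general knowledge of the interferon response, and each had to be above 0 in at least 4 of the 16 libraries. All 39 met this rule, of 24060 genes listed. They comprised 3 transcription factors, 7 nucleic acid sensors and RNA enzymes, 6 genes of the ubiquitin-like and ADP-ribosyl pathways, 16 antiviral effectors, 5 interferon-inducible GTPases and 2 secreted proteins. For 30 of them the mean over the libraries was at least 1 RPKM (reads divided by the length of the gene and by the depth of the library), the limit for testing that 12015 genes passed. The other 9 (Dhx58, Zbp1, Usp18, Parp9, Parp14, Oasl1, Mx1, Mx2 and Bst2) lay below it.

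Each of the 4 genotypes was represented by 4 mice, 2 females and 2 males, aged 8 to 9 months and of a strain given as C57BL/6; C3. Controls had both Trem2 alleles and no P301S transgene (TREM2+/+). The P301S+ TREM2+/+ mice carried the transgene, which encodes tau with the P301S mutation, and both alleles. Heterozygotes (P301S+ TREM2+/-) carried the transgene and 1 allele, and knockouts (P301S+ TREM2-/-) the transgene and none. No group lacked Trem2 without the transgene, so the loss of Trem2 was compared among transgenic mice alone. The labels name neither the transgenic line nor its promoter, nor litters or batches, and mice were numbered consecutively by genotype. Nothing in the labels tells separate litters apart, so p-values measure the spread between these mice. RNA from cortical tissue was read near the 3' ends of its transcripts. The comparisons address how the transgene and the loss of 1 or both Trem2 alleles bear on this gene program.

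Type I interferons bind a receptor whose kinases phosphorylate Stat2, among other proteins. Stat2 and Irf9 are part of a complex that binds the interferon-stimulated response element, a short motif in the promoters of responsive genes, and Irf7 then amplifies interferon production. Interferon gamma acts through another motif, the gamma-activated sequence, and drives GTPases of the Gbp and Irg families and the chemokine Cxcl10. In the brain, microglia are a main responding cell type, and interferon-responsive microglia are known in aged and amyloid-bearing mice.

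The promoters of the most highly expressed named members that hold the response element are shown, because this is the motif that the complex with Stat2 and Irf9 binds. Not all members hold it in this window. Each is a RefSeq sequence (GRCm38.p6) of 300 bases, 250 before and 50 from the start of transcription, 5′ to 3′ on the strand of the gene. Capitals mark matches to GAAANNGAAA on either strand, and a match on the opposite strand appears as its reverse complement.
Ifitm3 (chr7:141010695-141010994, minus strand): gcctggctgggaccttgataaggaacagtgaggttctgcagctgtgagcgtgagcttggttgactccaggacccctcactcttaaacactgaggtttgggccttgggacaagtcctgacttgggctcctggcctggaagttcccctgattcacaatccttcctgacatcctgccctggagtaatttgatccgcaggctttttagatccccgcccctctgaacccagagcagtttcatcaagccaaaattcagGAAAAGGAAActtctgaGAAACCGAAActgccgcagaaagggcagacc
Ifit3 (chr19:34583279-34583578, plus strand): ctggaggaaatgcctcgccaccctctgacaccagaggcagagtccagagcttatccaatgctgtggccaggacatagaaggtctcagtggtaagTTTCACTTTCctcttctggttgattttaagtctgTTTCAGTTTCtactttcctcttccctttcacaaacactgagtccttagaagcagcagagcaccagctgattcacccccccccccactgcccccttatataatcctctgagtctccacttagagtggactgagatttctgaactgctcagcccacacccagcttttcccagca
Igtp (chr11:58199306-58199605, plus strand): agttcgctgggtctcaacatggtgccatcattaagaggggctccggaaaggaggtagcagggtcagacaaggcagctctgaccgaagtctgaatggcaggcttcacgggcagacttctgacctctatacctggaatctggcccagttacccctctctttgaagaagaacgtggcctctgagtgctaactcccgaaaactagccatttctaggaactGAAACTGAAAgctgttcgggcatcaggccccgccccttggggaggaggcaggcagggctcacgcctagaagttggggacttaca
Gbp7 (chr3:142530086-142530385, plus strand): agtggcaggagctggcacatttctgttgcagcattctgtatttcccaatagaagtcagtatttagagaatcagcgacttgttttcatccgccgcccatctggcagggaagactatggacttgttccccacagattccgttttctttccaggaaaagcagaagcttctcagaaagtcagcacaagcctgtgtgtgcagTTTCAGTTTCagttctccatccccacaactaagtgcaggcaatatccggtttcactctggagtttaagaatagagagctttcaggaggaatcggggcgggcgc
Ifit3 holds 2 matches, whose first bases lie 156 and 122 bases upstream of the start. In Igtp and Gbp7 the 1 match begins 34 and 53 bases upstream. In Ifitm3 both matches lie just downstream, from bases 2 and 19.

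The promoter table had an entry for 31 of the 39 members. Of these, 17 (54.84%) held at least 1 match to GAAANNGAAA, on either strand and with overlapping matches allowed, against 1079 (3.993%) of the 27025 genes with an entry. Per promoter, 3.443% of all 32851 held it. The gamma-activated sequence, searched as TTCNNNGAA, was in 8 members (25.81%) and in 9.554% of all genes. With 1 mismatch allowed in GAAANNGAAA, 29 members (93.55%) and 38.88% of all genes matched. These matches describe letters within a fixed window and are not measured binding sites.

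Several members are neighbours. Ifit2, Ifit3 and Ifit1 lie between 34550694 and 34650009 on chromosome 19 (GRCm38). Gbp7, Gbp3 and Gbp2 lie between 142530342 and 142638008 on chromosome 3, and Ifitm2 and Ifitm3 between 140954837 and 141010770 on chromosome 7. Parp14, Dtx3l and Parp9 share a stretch of chromosome 16. The genes Dtx3l and Parp9 overlap by 682 bases on opposite strands, where both genes begin, while the RNA was read near 3' ends. No source used here says whether strand was counted, so reads that fall within this overlap may not be separable. Ifit3 has a near-identical neighbour, Ifit3b, listed with 1228 reads in all. Levels within the Ifit, Ifitm, Gbp and Oasl families are uncertain for the same reason.

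Depth ranged from 2552467 reads in knockout replicate 2 to 14473181 in control replicate 2. Trem2 was highest in P301S+ TREM2+/+ mice (27.0 ± 8.69 RPKM, mean ± SD, n = 4 as in all groups below) and lowest in knockouts (2.09 ± 1.11). Heterozygotes had 12.9 ± 8.98 and controls 12.4 ± 5.53 RPKM. Trem2 was the 1 gene called under complete loss, with a limma adjusted p of 0.04 and a difference of -3.17 on the log2 scale (SE 0.43). Markers of excitatory neurons (6 of 6), astrocytes (9 of 9), oligodendrocytes (8 of 8) and choroid plexus (7 of 7) were detected in this tissue. Control replicate 3, a female, stood apart, with 4.45% of its reads from Rn45s, the ribosomal RNA precursor, against 1.14% to 2.76% elsewhere, and with the highest level of the 16 libraries for 24.9% of all genes tested. Heterozygote replicate 3, a male, had 6415527 reads in all and 46 reads of Xist, which coats the inactive X, against 1 to 8 in the other males.

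The strongest pattern in these genes belonged to single mice. Heterozygote replicate 3 (called heterozygote 3 below, and other mice likewise) had the highest level of all 16 mice in 32 of the 39 members (82.05%), while it was the highest in 6.776% of all genes tested. It was second in Trex1, Trim25, Ifitm3 and Igtp and ranked 3 of 16 in Ifi35, 6 of 16 in Ifitm2 and 10 of 16 in Adar. In 12 members it stood at over 2 times the highest of the other 15 mice, a count that was not made over all genes. Its ratio to the median of the other 3 heterozygotes could be formed for 35 members with over 3 reads in each of them, and was over 2 in 29 of the 35, from 0.975 for Adar to 14.7 for Cxcl10, with a median of 3.24. In bulk cortex, more cells of a type and more RNA per cell cannot be told apart.

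On the log2(RPKM + 1) scale, heterozygote 3 differed from the median of the other heterozygotes by a median of 1.27 over the 30 tested members, of which 29 were positive and 19 exceeded 1 (63.33%). Over all genes tested the median was 0.055, 58.02% were positive and 2.006% exceeded 1. Of the 30 members, 5 reached the limit for testing only through this mouse, and over the other 25 the median was 1.24, with 24 positive and 15 above 1, against a median of 0.054 and 1.919% above 1 over the 11987 genes that reach the limit without it. Heterozygote 4, also a male, was second of 16 in 15 of the 39 members and in 1104 of all genes tested. With heterozygote 3 left out, heterozygote 4 was the highest of 15 mice in 14 of the 39 members, against 8.1% of all genes. Its log2 difference from the mean of the female heterozygotes 1 and 2 had a median of 0.67 over the tested members, with 29 of 30 positive, against 0.10 over all genes, with 62.65% positive. The interferon genes of the 4 heterozygotes thus covered a wide range, with both females at its lower end.

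**Figure D1:**
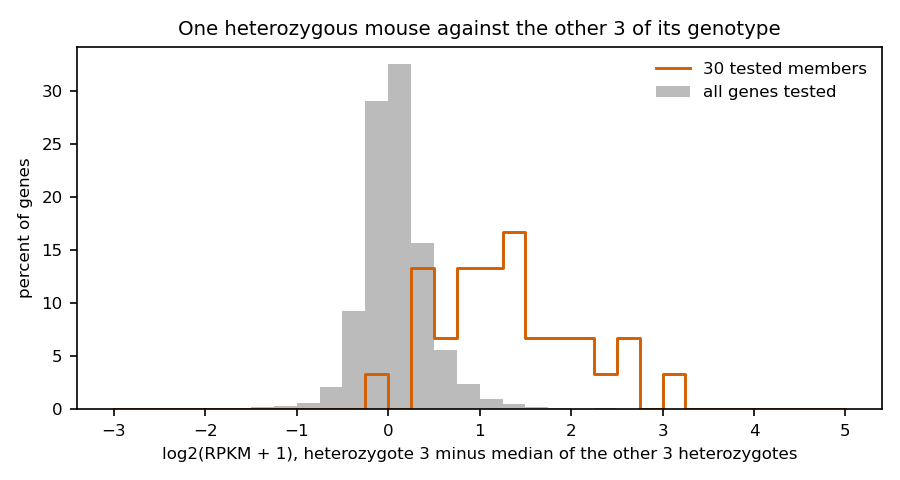
Distribution of the log2(RPKM + 1) difference between heterozygote replicate 3 and the median of the other 3 heterozygotes, for the 30 tested interferon-stimulated genes and for all genes tested (x axis, log2 difference; y axis, percent of genes in each bin). The members have a median of 1.27 and all genes a median near 0.

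The summed level of all 39 members came to 284, 330.2, 833 and 501 RPM (reads for every 1e+06 of the library) in heterozygotes 1 to 4. The P301S+ TREM2+/+ mice had 432, 422, 418 and 382, knockouts had 292, 302, 418 and 369, and controls had 299, 311, 379 and 279. Heterozygote 3 was therefore the highest of the 16 and heterozygote 1 among the lowest, and the spread of the heterozygotes (487.3 ± 248.8 RPM) was the widest of the 4 groups. Without heterozygote 3 they stood at 371.9 ± 114.3 (n = 3), against 413.5 ± 21.99 in P301S+ TREM2+/+ mice, 345.2 ± 59.22 in knockouts and 317.1 ± 43.61 in controls. Adar alone gave most of the reads of the sensor group, which stood at 165, 160.5, 194 and 203 RPM in heterozygotes 1 to 4. Antiviral effectors differed more, at 52.1, 71.3, 333 and 147 RPM in heterozygotes 1 to 4.

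**Figure D2:**
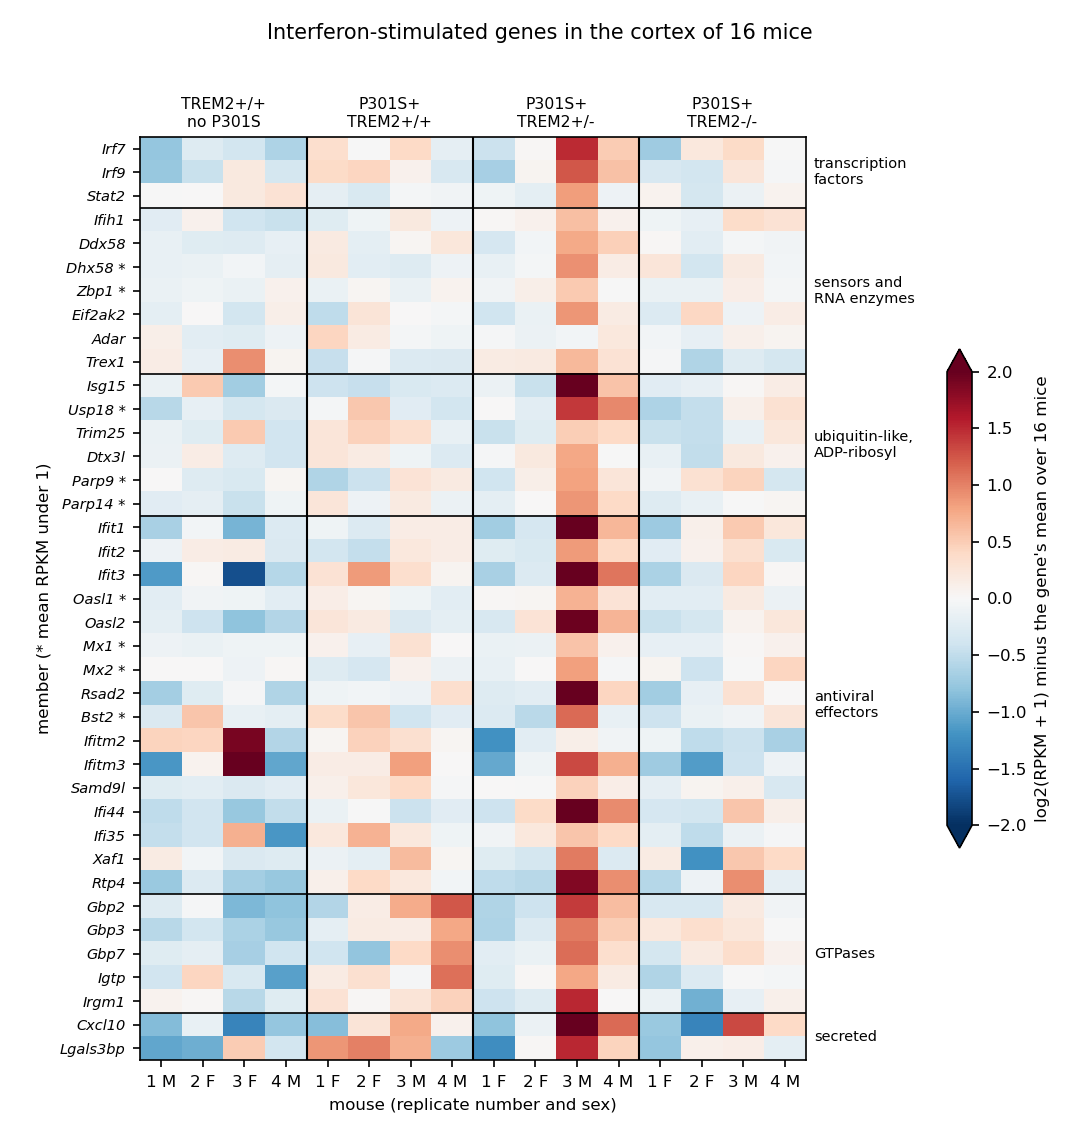
Levels of the 39 members (rows, ordered by role) in the 16 mice (columns, ordered by genotype), as log2(RPKM + 1) relative to each gene's mean over the mice, with colours that end at 2 above and below the mean. Heterozygote replicate 3 is the highest of the 16 in 32 rows, and control replicate 3 is the highest in 5.

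Among the transcription factors, Irf9, the DNA-binding subunit of the complex with Stat2, stood at 3.48, 6.37, 15.8 and 9.71 RPKM in heterozygotes 1 to 4, and between 3.21 and 8.59 in the other 12 mice. Stat2, its partner, stood at 2.13, 1.90, 4.93 and 2.11 RPKM, with the other 12 mice between 1.60 and 3.06. Irf7, the amplifier of type I interferon production, stood at 0.462, 0.999, 4.53 and 1.78 RPKM, with the others between 0.145 and 1.59. In all 3 factors heterozygote 3 lay above every other mouse. For Stat2, heterozygote 4 lay between heterozygotes 1 and 2.

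Sensors and RNA enzymes differed among themselves. Adar, which edits double-stranded RNA and has a constitutive form in brain, stood at 24.1, 22.6, 23.5 and 28.4 RPKM in heterozygotes 1 to 4, inside the range of the other 12 mice (20.4 to 33.4). Trex1, an exonuclease that degrades cytosolic DNA, stood at 5.96, 6.08, 8.77 and 6.65 RPKM, and was highest in control 3, at 10.9. Ifih1, a receptor for long double-stranded RNA, stood at 1.26, 1.36, 2.37 and 1.35 RPKM, with the others between 0.641 and 1.86. Heterozygote 3 was thus above every other mouse in Ifih1 and not in Adar or Trex1. Dhx58 and Zbp1, both below the limit for testing, were also highest in heterozygote 3, at 1.42 and 0.577 RPKM.

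In the ubiquitin-like group, Isg15, a small modifier that is attached to proteins during the interferon response, stood at 1.64, 1.09, 10.5 and 3.25 RPKM in heterozygotes 1 to 4. The other 12 mice lay between 0.758 and 3.11. Trim25, a ubiquitin ligase of the RNA-sensing pathway, stood at 0.755, 1.02, 2.35 and 2.12 RPKM, within the range of 0.704 to 2.40 of the others. Usp18, the protease that removes Isg15 and restrains receptor signalling, had a mean of 0.841 RPKM, just under the limit for testing, and stood at 0.700, 0.466, 3.52 and 2.30 in heterozygotes 1 to 4.

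Antiviral effectors summed to between 46.4 and 333 RPM over the 16 mice, and the 2 secreted proteins to between 6.58 and 75.0. Ifitm3, a membrane protein that blocks viral entry and the member with the highest mean level (33.9 RPKM), stood at 12.4, 24.5, 66.4 and 43.5 RPKM in heterozygotes 1 to 4, and control 3 exceeded all of them at 143. Ifit3, which binds other Ifit proteins that recognise viral RNA, stood at 5.92, 7.95, 50.3 and 21.6 RPKM, with the other 12 mice between 2.20 and 18.4. Its near copy Ifit3b followed the same order, at 2.89, 3.38, 20.7 and 5.31 RPKM.
Oasl2, an oligoadenylate synthetase-like protein, stood at 0.669, 1.51, 7.06 and 2.32 RPKM, with the others between 0.183 and 1.47. Ifi44, an interferon-induced cytoplasmic protein, stood at 0.361, 1.35, 6.59 and 2.47, with the others between 0.0657 and 1.65. Rsad2, or viperin, which makes a chain-terminating nucleotide, stood at 1.39, 1.47, 10.6 and 2.87, with the others between 0.773 and 2.63. In these 4 genes heterozygote 3 was the highest and heterozygote 4 the second highest of all 16 mice.
Samd9l, a restriction factor of poxviruses, differed little, at 1.02, 1.01, 1.78 and 1.21 RPKM in heterozygotes and 0.612 to 1.66 in the others. Ifitm2 did not share the pattern, with no read in heterozygote 1 and 0.987, 1.49 and 1.21 RPKM in heterozygotes 2 to 4, against 7.62 in control 3.

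The GTPases of the Gbp and Irg families, which attack the vacuoles of intracellular pathogens, were high in heterozygote 3 and in P301S+ TREM2+/+ mouse 4. Gbp2 stood at 0.622, 0.840, 5.46 and 2.77 RPKM in heterozygotes 1 to 4 and at 4.79 in P301S+ TREM2+/+ mouse 4. Gbp3 stood at 0.610, 1.04, 4.04 and 2.45, and at 3.21 in that mouse. Gbp7 stood at 2.38, 2.57, 7.43 and 3.92, and at 6.43 in that mouse.
That P301S+ TREM2+/+ mouse, a male, was the highest of 16 in Igtp, at 8.15 RPKM, against 2.59, 3.31, 6.32 and 3.79 in heterozygotes 1 to 4. Irgm1 was second highest in the same mouse, at 3.08 RPKM, behind heterozygote 3, with 1.24, 1.48, 7.49 and 1.99 in heterozygotes 1 to 4. Summed over the 5 GTPases, the level came to 96.6 RPM in heterozygote 3 and 80.8 in P301S+ TREM2+/+ mouse 4, and to at most 48.2 in the other 14 mice.

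Of the secreted proteins, Cxcl10, a chemokine that draws T cells through the receptor Cxcr3, stood at 0.434, 1.31, 19.3 and 4.47 RPKM in heterozygotes 1 to 4. It had no read in control 3 and knockout 2, and stood at most at 5.26 RPKM, in knockout 3, among the other 12 mice. Lgals3bp, a galectin-binding glycoprotein, stood at 2.82, 8.23, 24.8 and 11.3 RPKM in heterozygotes and between 3.42 and 17.3 in the others. Both were highest in heterozygote 3.

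**Figure D3:**
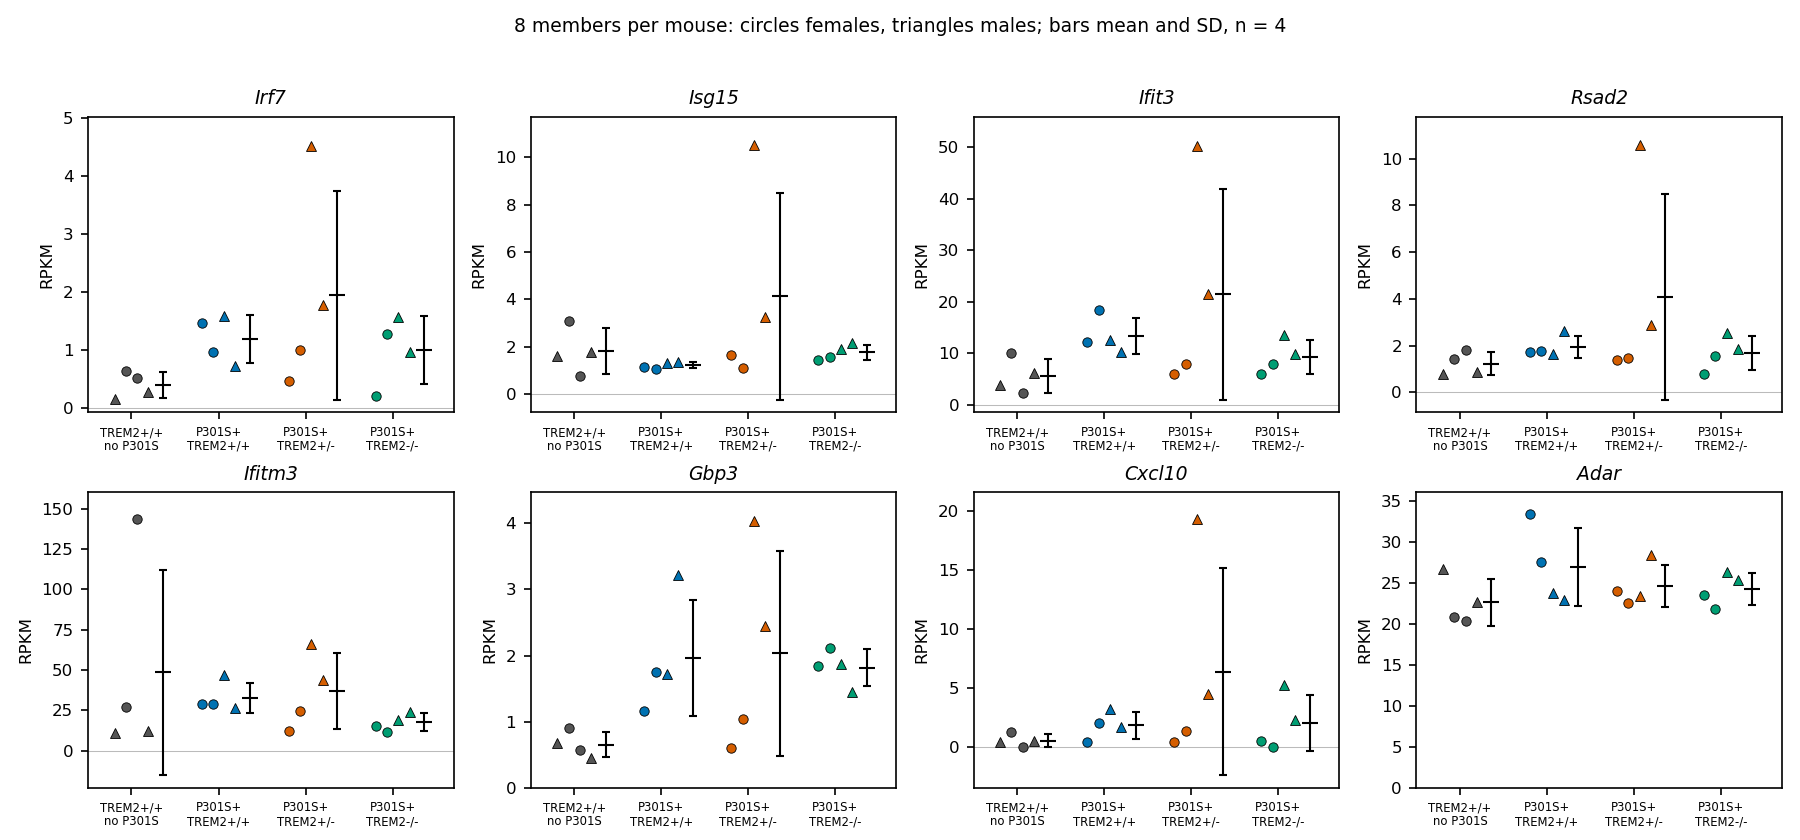
Levels (RPKM, linear axis) of Irf7, Isg15, Ifit3, Rsad2, Ifitm3, Gbp3, Cxcl10 and Adar in each mouse by genotype. Circles are females, triangles males, and bars give the mean and SD of 4 mice. Heterozygote replicate 3 is the highest mouse in every panel except Ifitm3, where control replicate 3 is at 143 RPKM, and Adar.

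Markers of microglia moved with this pattern. All 15 were detected and none was at 0 in the series. Their summed level ranged from 516 to 1792 RPM in heterozygotes, from 795 to 1140 in P301S+ TREM2+/+ mice, from 547 to 1078 in knockouts and from 551 to 1248 in controls. Heterozygote 3 was the highest of 16 mice for the sum and for 9 of the 15 markers, and heterozygote 4 was second for the sum, at 1249. Per read of these markers, heterozygote 3 had 0.186 reads of the 16 antiviral effectors, the highest of 16, ahead of knockout 3 (0.134), control 2 (0.123) and heterozygote 4 (0.117), and the lowest was knockout 4, at 0.0760. For all 39 members the same ratio was 0.465 in heterozygote 3, 9 of 16 in rank, within a range of 0.304 to 0.551. The sum of all members includes Adar, which gave 909 of 5346 member reads in heterozygote 3 and 1524 of 2981 in heterozygote 1. For the sensor group, which holds Adar, the ratio was 0.108 in heterozygote 3, the lowest of 16. The microglial list holds Trem2 itself, and its part in the result was not tested.

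T and NK cells, which can release interferon gamma, left few reads. Of 12 listed markers Ncr1 was at 0 throughout, and the others summed to 2.65 to 7.09 RPM in heterozygotes, 4.75 to 12.9 in P301S+ TREM2+/+ mice, 3.29 to 11.1 in knockouts and 0.40 to 7.12 in controls. Heterozygote 3 had the lowest of the heterozygote values, but most reads of these markers in the other mice were from Cd4. Without Cd4, heterozygote 3 had 10 reads of these markers (1.56 RPM, second of 16), P301S+ TREM2+/+ mouse 1 had 11 and heterozygote 4 had 10. Reads were found for 8 of the markers in heterozygote 3 and in heterozygote 4, and for 2 to 6 in the other mice.
Monocyte and neutrophil markers placed heterozygote 3 at rank 6, with 5.30 RPM, within 1.10 to 14.7 over the mice. Border macrophage markers placed it second, at 26.8 RPM, behind heterozygote 4 at 31.7. Endothelial markers placed it at rank 4, with 341, within 262 to 370.4 in heterozygotes. It was also the highest of 16 for ependymal markers (22.0 RPM, against 5.32 to 17.9 in the others), second to heterozygote 4 for mural cell markers (112.7 against 120.5 RPM), and at rank 3 for astrocyte markers. Excitatory neuron markers placed it at rank 10 and heterozygote 4 at rank 16, the lowest. Inhibitory neuron markers placed them at ranks 9 and 1, and choroid plexus markers at ranks 4 and 13. Meningeal and fibroblast markers summed to 475, 645, 1142 and 1726 RPM in heterozygotes 1 to 4, with heterozygote 3 at rank 4 and heterozygote 4 at rank 1. The part of these cells in the result was not tested.

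**Figure D4:**
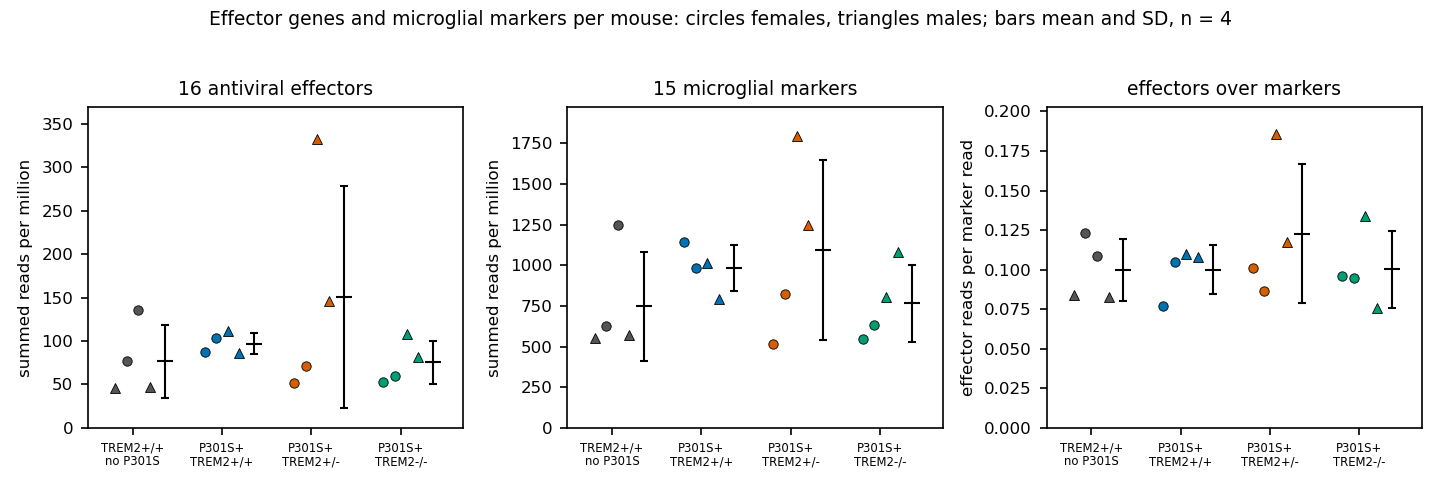
Summed level, in RPM, of the 16 antiviral effectors and of the 15 microglial markers, and their ratio, in each mouse by genotype (circles females, triangles males, bars mean and SD). Heterozygote replicate 3 is the highest in all 3 panels, at 333, 1792 and 0.186.

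The effect of the P301S transgene was read from P301S+ TREM2+/+ mice against controls. No member passed the threshold (0 of 30, and 0% of all genes tested), and the lowest adjusted p of a member in limma was 0.269. The members leaned upward, with 25 of 30 differences positive and a median log2 difference of 0.41, against 0.06 over all genes. Of the 30, 6 had an unadjusted p under 0.05 (5 higher, 1 lower), against 1657 of all 12015 genes. In 5 members every P301S+ TREM2+/+ mouse lay above every control (3.55% of all genes did so), namely Gbp3, Ifit3, Irf7, Rtp4 and Samd9l. In 1, Stat2, every one lay below (1.27% of all genes).

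Gbp3 stood at 1.16, 1.75, 1.72 and 3.21 RPKM in P301S+ TREM2+/+ mice and at 0.681, 0.907, 0.579 and 0.453 in controls. Its log2 difference was 0.80 (SE 0.27, limma adjusted p = 0.269). Ifit3 stood at 12.2, 18.4, 12.6 and 10.2 RPKM against 3.92, 9.96, 2.20 and 6.24, a log2 difference of 1.24 (SE 0.48, adjusted p = 0.308). Both genes separated the 2 groups without overlap, and neither passed the threshold.
Samd9l stood at 1.16, 1.36, 1.66 and 0.992 RPKM against 0.709, 0.752, 0.646 and 0.727 (log2 difference 0.42, SE 0.15, adjusted p = 0.289). Rtp4, a chaperone for receptor trafficking induced by interferon, stood at 4.48, 5.73, 4.88 and 3.91 against 2.06, 3.21, 2.19 and 2.03 (0.77, SE 0.40, adjusted p = 0.398). Irf7 stood at 1.47, 0.955, 1.59 and 0.722 against 0.145, 0.632, 0.514 and 0.272 (0.65, SE 0.33, adjusted p = 0.386). Samd9l lay close to the limit for testing, with a mean of 1.04 RPKM over the 16 mice. Samd9l and Irf7 reached that limit only with heterozygote 3, a mouse in neither group.
Stat2 was the member whose P301S+ TREM2+/+ mice, at 1.93, 1.68, 2.24 and 2.15 RPKM, all lay below the controls, at 2.30, 2.33, 2.83 and 3.06. Its log2 difference was -0.27 (SE 0.19, adjusted p = 0.518).

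Gbp2 and Igtp had differences of similar size with groups that overlapped. Gbp2 stood at 0.644, 1.72, 3.13 and 4.79 RPKM against 1.04, 1.41, 0.311 and 0.411 in controls, so that P301S+ TREM2+/+ mouse 1 lay below 2 controls (0.89, SE 0.33, adjusted p = 0.293). Igtp stood at 3.77, 4.32, 3.21 and 8.15 against 2.27, 4.71, 2.46 and 0.999, with control 2 above 3 of the transgenic mice (0.73, SE 0.32, adjusted p = 0.346). The 5 GTPases were all positive, with a median of 0.73. Trex1 leaned the other way, at 3.54, 5.17, 4.16 and 4.09 RPKM against 5.93, 4.56, 10.9 and 5.48 in controls (-0.50, SE 0.22, adjusted p = 0.348). Without control 3, its highest mouse, this difference was -0.25 (SE 0.16, adjusted p = 0.382).
By role, the median log2 difference was 0.89 for the 2 secreted proteins, 0.49 for the 3 transcription factors, 0.42 for the 12 tested effectors, 0.18 for the 5 tested sensors and 0.16 for the 3 tested genes of the ubiquitin-like group. Leaving out control 3 moved the difference of 8 of the 30 members by over 1.5 times, and 3 of these changed sign (Ifitm2, from -0.33 to 0.13, and Ifit2 and Eif2ak2, both near 0). The difference of Ifitm3 went from 0.21 (SE 0.66) to 1.07 (SE 0.42, adjusted p = 0.18), that of Ifi35 from 0.59 to 0.94 (SE 0.24, adjusted p = 0.108), that of Trim25 from 0.28 to 0.52 (SE 0.23, adjusted p = 0.213) and that of Rsad2 from 0.41 to 0.62 (SE 0.38, adjusted p = 0.345). Trex1, given above, was the other. Without control 3, 9 of 30 members had an unadjusted p under 0.05 and none passed the threshold. Without control 3 and both P301S+ TREM2+/+ females, the members' median was 0.20, with 22 of 30 positive.

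Cell type markers moved with the same comparison. For the 15 microglial markers the median log2 difference was 0.61, with 12 positive and 7 at an unadjusted p under 0.05. For the 10 tested endothelial markers it was 0.59, with 6 at an unadjusted p under 0.05, and their summed level was 324 to 371 RPM in P301S+ TREM2+/+ mice and 177 to 272 in controls. Choroid plexus markers had a median of 0.73 (6 of 7 positive, 1 at an unadjusted p under 0.05). Their summed level was uneven, at 277, 2040, 2231 and 325 RPM in P301S+ TREM2+/+ mice 1 to 4 and 142.9 to 673.5 in controls. Oligodendrocyte markers had a median of 0.38 (8 of 8 positive, 2 at an unadjusted p under 0.05). Excitatory neuron markers had a median of -0.66, with 4 of 6 negative and 3 of these at an unadjusted p under 0.05. Their summed level was 6783, 11656, 17898 and 5985 RPM in controls 1 to 4, and 3853 to 6759 in P301S+ TREM2+/+ mice. None of these markers passed the threshold, and their part in the result was not tested.

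**Figure D5:**
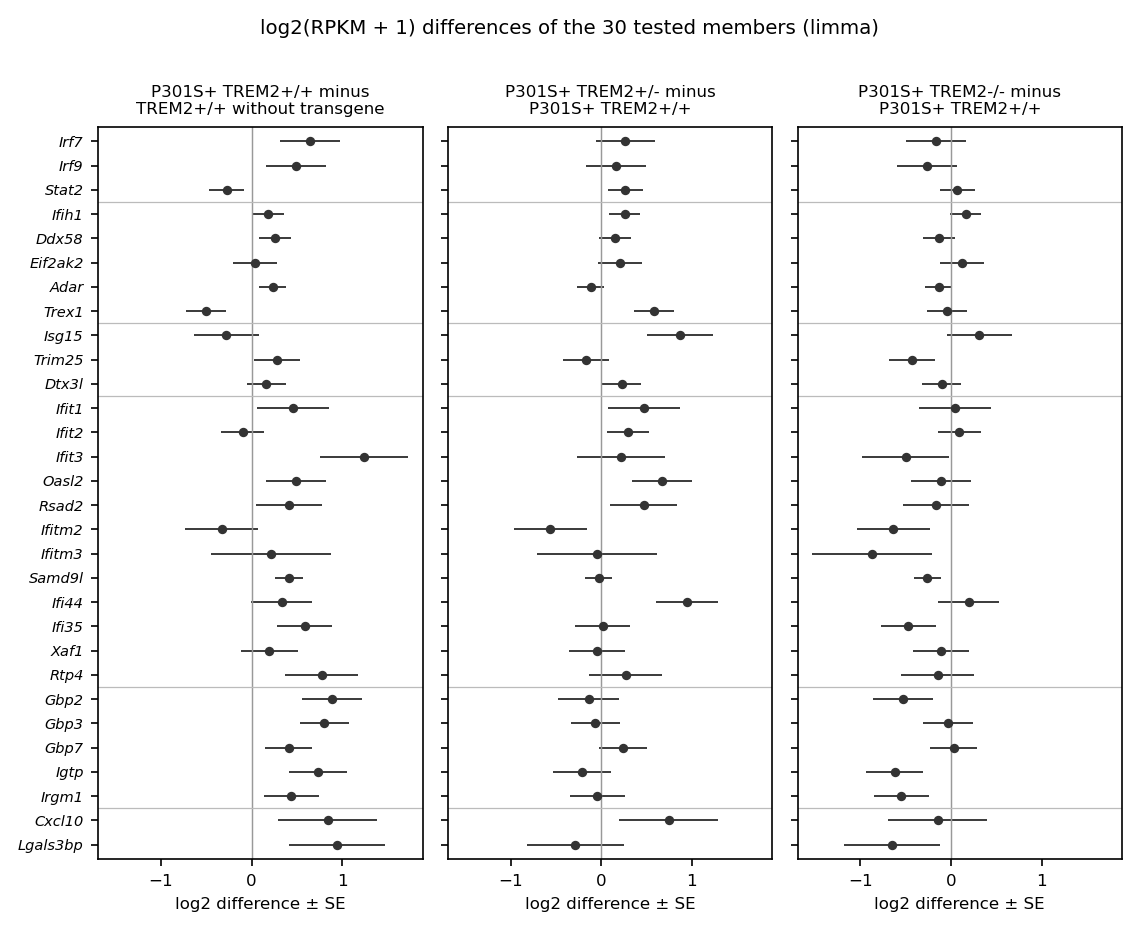
Log2 differences (points) with standard errors (bars) on the log2(RPKM + 1) scale for the 30 tested members under the P301S effect, partial loss and complete loss, which share the P301S+ TREM2+/+ mice. No member passed the threshold in any of the 3 comparisons, and Ifit3 has the largest P301S difference, 1.24.

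Partial loss of Trem2 was read from heterozygotes against P301S+ TREM2+/+ mice, the same mice that enter the P301S effect. No member passed the threshold (0 of 30, 0% of all genes, lowest adjusted p of 1 in limma). The median log2 difference of the members was 0.21, with 19 of 30 positive, against 0.01 over all genes. Of the 30, 3 had an unadjusted p under 0.05, against 324 of 12015 genes. Over the 25 members that reach the limit without heterozygote 3 the median was 0.16, with 15 positive. The lean rested on heterozygote 3. Without it the median over the same 30 genes was -0.08, with 11 positive and none at an unadjusted p under 0.05. Every heterozygote lay above every P301S+ TREM2+/+ mouse in 1 member, Trex1 (1.4% of all genes), and below in 0 members (1.46% of all genes).

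Ifi44 stood at 0.643, 0.798, 0.339 and 0.543 RPKM in P301S+ TREM2+/+ mice, against 0.361, 1.35, 6.59 and 2.47 in heterozygotes. Its log2 difference was 0.95 (SE 0.34, limma adjusted p = 1), and 0.56 (SE 0.27, adjusted p = 0.998) without heterozygote 3. Isg15 stood at 1.14, 1.08, 1.30 and 1.36 RPKM in P301S+ TREM2+/+ mice, which gave 0.87 (SE 0.36, adjusted p = 1) with heterozygote 3 and 0.41 (SE 0.25, adjusted p = 0.998) without it. In both genes heterozygotes 3 and 4 lay above all 4 P301S+ TREM2+/+ mice and at least 1 other heterozygote lay among them.
Oasl2 stood at 1.47, 1.35, 0.691 and 0.805 RPKM in P301S+ TREM2+/+ mice, which gave 0.67 (SE 0.33, adjusted p = 1) with heterozygote 3 and 0.27 (SE 0.25, adjusted p = 0.998) without it. Trex1, whose heterozygotes did not overlap the P301S+ TREM2+/+ mice, differed by 0.58 (SE 0.22, adjusted p = 1) with heterozygote 3 and 0.46 (SE 0.24, adjusted p = 0.998) without it. For Ifit3 the sign changed, from 0.22 (SE 0.48) to -0.27 (SE 0.43).
Ifih1 differed by 0.26 (SE 0.17, adjusted p = 1) and by 0.15 without heterozygote 3. Ifitm2, at 1.38, 2.18, 1.89 and 1.38 RPKM in P301S+ TREM2+/+ mice, differed by -0.56 (SE 0.40, adjusted p = 1) and by -0.76 (SE 0.43, adjusted p = 0.998) without that mouse. The 5 GTPases had a median of -0.06, with 1 of 5 positive, and the 12 effectors a median of 0.25, with 8 positive. The microglial markers had a median of 0.05 in this comparison, with 9 of 15 positive.

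Sex entered this comparison as well. The difference between females and males in the effect of partial loss was tested as an interaction. No member passed the threshold (0 of 30, 0% of all genes), but 12 of 30 had an unadjusted p under 0.05, all with a negative interaction (a difference lower in females than in males), against 778 of 12015 genes. The median interaction was -0.80 with 1 of 30 positive, against -0.04 over all genes. Over the 25 members that reach the limit for testing without heterozygote 3, the median was also -0.80, with 1 positive. Of these 25, 9 had an unadjusted p under 0.05. Rtp4 averaged 2.55 RPKM in female and 13.1 in male heterozygotes, and 5.11 and 4.40 in female and male P301S+ TREM2+/+ mice, an interaction of -2.09 (SE 0.52, limma adjusted p = 0.537).
Irf9 averaged 4.92 and 12.8 RPKM in female and male heterozygotes, and 8.44 and 5.61 in P301S+ TREM2+/+ mice (-1.75, SE 0.45, adjusted p = 0.539). Ifit3 averaged 6.93 and 35.9 in heterozygotes, and 15.3 and 11.4 in P301S+ TREM2+/+ mice (-2.49, SE 0.74, adjusted p = 0.623). Each average is over 2 mice, and the male heterozygotes are mice 3 and 4. With array weights, which down-weight libraries with a wide spread, these 3 genes passed the threshold (adjusted p = 0.044 for Rtp4, 0.0376 for Irf9 and 0.026 for Ifit3), as did 273 of all genes. They also passed without control 3 (adjusted p = 0.045 for Rtp4, 0.0343 for Irf9 and 0.0258 for Ifit3, with 383 of all genes called), with the same differences, since that library enters this interaction only through the shared spread.

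The interaction was also fitted with equal weights and all controls but without heterozygote 3, which leaves 1 male heterozygote, assumed to vary like the other mice. The median interaction over the members was then -0.58, with 6 of 30 positive, against -0.05 over all genes, and 0 genes in all were called. Rtp4 stood at -1.64 (SE 0.53), Irf9 at -1.43 (SE 0.48) and Ifit3 at -1.90 (SE 0.76), each with an adjusted p of 0.999, and 6 members had an unadjusted p under 0.05. The negative direction of these 3 genes was thus also present with heterozygote 4 as the only male. The microglial markers had a median interaction of -1.39, with 13 of 15 negative and 8 at an unadjusted p under 0.05, and their part in the result was not tested.
Over all genotypes the females leaned lower, with a median female minus male difference of -0.28 and 3 of 30 members positive, against -0.08 over all genes. For the 25 members that reach the limit without heterozygote 3 the median was -0.27, with 3 positive. No member passed (0 of 30, against 0.0416% of all genes). Gbp7 (-0.64, SE 0.18), Cxcl10 (-1.26, SE 0.39) and Gbp2 (-0.76, SE 0.24) had the smallest p, each with an adjusted p of 0.306. Without heterozygote 3 the median was -0.17, with 6 of 30 positive. No member passed for the interaction of sex with the P301S effect (0 of 30, against 0.00832% of all genes) or with complete loss (0 of 30, 0% of all genes).

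Complete loss of Trem2 was read from knockouts against the same P301S+ TREM2+/+ mice. No member passed the threshold (0 of 30, against 0.00832% of all genes, which is Trem2 itself), and none had an unadjusted p under 0.05, against 1190 of 12015 genes. The members' median log2 difference was -0.14, with 8 of 30 positive, against -0.02 over all genes. Every knockout lay above every P301S+ TREM2+/+ mouse in 1 member, Isg15 (2.86% of all genes), and below in 2, Ifitm2 and Ifitm3 (4.76% of all genes).

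Ifitm3 stood at 15.5, 11.5, 19.2 and 24.2 RPKM in knockouts, against 28.9, 29.1, 46.8 and 26.3 in P301S+ TREM2+/+ mice. Its log2 difference was -0.87 (SE 0.66, limma adjusted p = 0.68). Ifitm2 stood at 1.17, 0.625, 0.711 and 0.473 RPKM in knockouts (-0.64, SE 0.40, adjusted p = 0.61). These Ifitm2 levels rest on only 4, 1, 4 and 2 reads, against 6, 10, 6 and 11 reads in P301S+ TREM2+/+ mice. Both Ifitm genes were thus lower in each knockout than in each P301S+ TREM2+/+ mouse, by differences that the test did not separate from the spread. That spread is estimated over all 16 mice. It includes control 3, which is in neither group and stood at 143 RPKM for Ifitm3 and 7.62 for Ifitm2.
Isg15 stood at 1.45, 1.55, 1.92 and 2.16 RPKM in knockouts (0.31, SE 0.36, adjusted p = 0.799). Its reads were also few, at 6, 3, 13 and 11 in knockouts and 6, 6, 5 and 13 in P301S+ TREM2+/+ mice. Igtp had the smallest p, at 1.81, 2.52, 3.25 and 3.15 RPKM in knockouts (-0.62, SE 0.32, adjusted p = 0.539). Irgm1 stood at 1.73, 0.528, 1.65 and 2.20 RPKM in knockouts and at 2.65, 2.02, 2.56 and 3.08 in P301S+ TREM2+/+ mice (-0.55, SE 0.30, adjusted p = 0.556). The Igtp and Irgm1 groups overlapped.
Gbp2 differed by -0.53 (SE 0.33, adjusted p = 0.61), Trim25 by -0.43 (SE 0.26, adjusted p = 0.581) and Samd9l by -0.26 (SE 0.15, adjusted p = 0.581). Of the 5 GTPases 4 were lower, with a median of -0.53, and of the 12 effectors 9 were lower, with a median of -0.16. Without control 3 and both P301S+ TREM2+/+ females the median over the members was 0.09, with 17 of 30 positive. The microglial markers leaned lower here, with a median of -0.30, 12 of 15 lower and 4 at an unadjusted p under 0.05, and their part in the result was not tested.

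Knockouts were also set against heterozygotes. No member passed (0 of 30, 0% of all genes), 29 of 30 were lower in knockouts and the median was -0.40, against -0.03 over all genes. Of the 25 members that reach the limit for testing without heterozygote 3, 24 were lower and the median was -0.39. Among these 25, which do not include Oasl2 and Ifi44, 1 had an unadjusted p under 0.05. The smallest p were those of Trex1 (-0.63, SE 0.22), Oasl2 (-0.78, SE 0.33) and Ifi44 (-0.75, SE 0.34), each with a limma adjusted p of 1. Without heterozygote 3 the median was -0.11, with 22 of 30 lower. Every knockout lay below every heterozygote in 1 member, Trex1 (2.41% of all genes), and above in 0 members (2.96% of all genes). Of the microglial markers 14 of 15 were lower in knockouts, with a median of -0.40, and their part in the result was not tested.

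Against controls, heterozygotes had 28 of 30 members higher and a median log2 difference of 0.56, against 0.08 over all genes. No member passed the threshold (0 of 30, 0% of all genes), while 15 had an unadjusted p under 0.05, 14 of them higher, against 1153 of 12015 genes. Over the 25 members that reach the limit for testing without heterozygote 3, the median was 0.52, with 23 positive. Of these 25, 11 had an unadjusted p under 0.05. Ifi44 and Oasl2 are not among the 25. Ifi44 differed by 1.28 (SE 0.34, limma adjusted p = 0.482), Oasl2 by 1.15 (SE 0.33, adjusted p = 0.482), Ifit3 by 1.46 (SE 0.48, adjusted p = 0.497) and Cxcl10 by 1.59 (SE 0.55, adjusted p = 0.497). Without heterozygote 3 these 4 differences were 0.89, 0.75, 0.97 and 1.01, the median was 0.30 with 24 of 30 positive, and 5 members had an unadjusted p under 0.05. Every heterozygote lay above every control in 1 member, Samd9l (2.73% of all genes), and below in 0 members (1.66% of all genes). Samd9l is not among the 25 either, since its mean without heterozygote 3 was 0.9945 RPKM. The microglial markers had a median of 0.53 in this comparison, and their part in the result was not tested.
Knockouts against controls gave a median of 0.16 (0.26 without control 3), with 23 of 30 members positive, against 0.08 over all genes (0.013 without control 3), and no call (0 of 30, 0% of all genes). Every knockout lay above every control in 2 members, Gbp3 and Ifi44 (2.25% of all genes), and below in 0 members (1.54% of all genes). Gbp3 stood at 1.85, 2.11, 1.87 and 1.45 RPKM in knockouts, a log2 difference of 0.77 (SE 0.27, adjusted p = 0.45). Ifi44 stood at 0.440, 0.404, 1.65 and 0.968 RPKM, against 0.278, 0.380, 0.0657 and 0.290 in controls (0.53, SE 0.34, adjusted p = 0.457). These Ifi44 levels rest on 7, 3, 43 and 19 reads in knockouts and 6, 16, 1 and 5 in controls. Ifi44 reached the limit for testing only with heterozygote 3, which is in neither group. A test for any difference between the 4 genotypes called no member (0 of 30, 0% of all genes), with 6 members and 955 of all genes at an unadjusted p under 0.05.

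The other genes of the pathway gave no call either, with 53 tested. Of 21 interferon genes listed, 19, among them Ifnb1 and all listed Ifna genes, had no read in any library. A count of 0 allows up to 3 reads, which is 0.0238 RPM over all libraries together and 1.18 in the shallowest library. Ifng had 6 reads in 4 libraries, 2 of them in heterozygote 3 and 2 in P301S+ TREM2+/+ mouse 2, and Ifnk had 1 read. Interferon transcripts were thus at or below what this depth can measure.
Among the receptors, Ifngr2, a chain of the interferon gamma receptor, stood at 4.59, 6.33, 10.9 and 12.5 RPKM in P301S+ TREM2+/+ mice and at 12.6, 12.7, 12.6 and 12.8 in knockouts (0.60, SE 0.22, limma adjusted p = 0.426). The same gene differed by 0.55 (SE 0.22, adjusted p = 1) under partial loss, and Il10rb, a receptor chain shared by interferon lambda and interleukin-10, by 0.67 (SE 0.26, adjusted p = 1). The lower Ifngr2 levels were those of the P301S+ TREM2+/+ females.
Among the feedback inhibitors, 4 of 6 were tested. Ptpn6, a phosphatase of immune receptors, stood at 2.84, 3.60, 2.51 and 1.20 RPKM in P301S+ TREM2+/+ mice against 0.777, 1.19, 1.26 and 0.554 in controls (0.83, SE 0.26, adjusted p = 0.269), with mouse 4 among the controls. Pias1, a SUMO ligase, differed by 0.42 (SE 0.19, adjusted p = 1) under partial loss. Under the P301S effect, 3 of the 4 inhibitors were positive.
Of 89 further interferon-stimulated genes, 81 were listed and 29 tested. Their median under the P301S effect was 0.24, with 20 of 29 positive. Parp12, an ADP-ribosyltransferase, differed by 0.82 (SE 0.26) and Znfx1, an RNA helicase-like protein, by 0.61 (SE 0.19), each with an adjusted p of 0.269. Under complete loss, Pnpt1, a mitochondrial exoribonuclease, was higher in knockouts by 0.65 (SE 0.22) and Ifitm1 lower by a log2 difference of -0.80 (SE 0.29), each with an adjusted p of 0.426. Over all 53 tested pathway genes, 13 had an unadjusted p under 0.05 for the P301S effect (10 higher), 3 for partial loss (all higher) and 6 for complete loss (4 higher).

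The 9 members under the limit for testing were examined in a fit over all genes above 0 in at least 4 libraries (17149 genes). None passed there either. Their lowest adjusted p was 0.502 for the P301S effect, 1 for partial loss and 0.783 for complete loss. Of the 30 tested members, 5 (Samd9l, Eif2ak2, Ifi44, Irf7 and Oasl2) reached a mean of 1 RPKM only with heterozygote 3, and without it their means were between 0.732 and 0.994. Just inside the limit lay Samd9l and just outside it Usp18.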

How the data were processed

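Cortical RNA of 16 mice was sequenced from 3' ends with a QuantSeq kit, per the labels' protocols. Per the submitters' processing notes, the tools were STAR, HTSeq, edgeR and limma and the build mm10; no version, role or order is stated. The values deposited by the authors are RPKM, 1 file per mouse. The headers do not name the unit, which was read from the values: within a gene they are whole multiples of the value of 1 read. Whole reads were recovered for 18911 of 18911 genes above 0 (100.0%, tolerance 1e-05 reads or a relative 3e-07), and 1 line per file that names no gene was left out. Division by gene length does not suit reads from 3' ends, so levels were compared mainly between mice for 1 gene.

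R 4.3.3 and limma 3.58.1, with its trend option, were used to test log2(RPKM + 1) for genes whose RPKM averaged 1 or more, with genotype and sex over all 16 libraries and 11 residual degrees of freedom (8 for interactions). This scale understates the change of low genes. Differences are log2 differences of this fit, and adjusted p-values follow Benjamini and Hochberg over every gene in the fit, with calls under 0.05. The fit was tested on simulated data. Alternatives were another pseudocount (0.1), another filter, size factors, no sex covariate, only the groups compared, array weights, limma-voom on the recovered reads with and without quality weights, and libraries left out. Gene coordinates are from GENCODE M21 (GRCm38). Python 3.11.15, pandas 2.3.3 and numpy 2.4.6 were used.

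The members and lists were chosen with earlier results of these data known. The genes named with values are the 6 members with the smallest p in each of the P301S effect, partial loss and complete loss, the 2 with the highest mean RPKM in each role, and the 3 pathway genes with the smallest p in each of these comparisons. Irf7, Rsad2, Rtp4, Ifi35, Usp18, Dhx58, Zbp1, Eif2ak2, Ifit2, Xaf1, Mx2, Bst2 and the pathway gene Ifng lie outside this rule and were chosen after their values were seen. A pathway gene that the totals include is not reported here on its own.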

Additional observations from a re-analysis of the deposited data

Results flagged for a closer look

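Within groups of 4 mice, the RPKM of all 39 members and their summed RPM were searched for a mouse that stood far from the other 3 (beyond Dixon's critical value for groups of this size). Of 160 groups, 13 met this (8.125%). The critical value marks about 1 in 20 groups of normally distributed values, while the values searched here were not log-transformed. The search was not made over all genes, so the share of 8.125% cannot be read as an excess. The members share their mice, so these marks are not independent. Of the 13 marks, 7 were in heterozygotes and all 7 fell on replicate 3. That mouse stood apart for Stat2, at 4.93 RPKM against 1.90 to 2.13, for Ifih1, at 2.37 against 1.26 to 1.36, and for Irgm1, at 7.49 against 1.24 to 1.99. It also stood apart for Xaf1, at 4.44 against 1.07 to 1.25, for Rsad2, at 10.6 against 1.39 to 2.87, and for the lowly expressed Mx2, at 1.35 against 0.197 to 0.340, and Bst2, at 2.65 against 0.135 to 0.494.

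Ifitm3 stood apart in control replicate 3, at 143.3 RPKM against 11.0 to 27.3, and in P301S+ TREM2+/+ replicate 3, at 46.8 against 26.3 to 29.1. Rsad2 stood apart in P301S+ TREM2+/+ replicate 4, at 2.63 against 1.67 to 1.77. Among controls, replicate 2 was high for Bst2, at 1.44 against 0.352 to 0.499, and for Rtp4, at 3.21 against 2.03 to 2.19, and replicate 3 was low for Mx2, at 0.237 against 0.334 to 0.347.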

How the results depend on the processing

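No difference of a named member changed sign past the threshold, and no call of a member was lost, since none was made with the main settings. Array weights called 1 member, Ifi35, for the P301S effect (1.002, adjusted p = 0.0479) and for heterozygotes against controls (1 member, 0.90, adjusted p = 0.0444), and 3 members for partial loss by sex (Ifit3, Irf9 and Rtp4), as did leaving out control replicate 3. Quality weights called 5 there (Ifit3, Irf9, Lgals3bp, Rtp4 and Trim25). Both weights put control replicate 3 at 0.045 and 0.048.

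Calls over all genes moved more. For the P301S effect (0) they were 197 with array weights, 4 with quality weights and 0 to 5 with 1 library left out, 5 without control replicate 3. For complete loss (1) they were 0 with the lower filter, with limma-voom and without control replicate 3 and both P301S+ TREM2+/+ females, 7 with only the groups compared, 690 with array weights, 19 with quality weights and 0 to 14 with 1 library left out, 14 without control replicate 3 (13 over the same genes). For complete against partial loss (0) they were 1 with only the groups compared, 5 with array weights, 7 with quality weights, 44 without control replicate 3 and both females, and 0 to 2 with 1 library left out. For heterozygotes against controls (0) they were 131, 1, 134 and 5 with array weights, limma-voom, quality weights and those 3 libraries left out, and 0 to 3 with 1 left out. For knockouts against controls (0) the same settings gave 4, 1, 3 and 1, and 0 to 1. For any genotype (0) they were 76, 26 and 6 with array weights, quality weights and the 3 libraries left out, and 0 to 8 with 1 left out (7 over the same genes). Sex (5) gave 14 with quality weights and 4 to 9 with 1 library left out. The P301S effect by sex (1) gave 0 with array weights, limma-voom and quality weights. Partial loss by sex (0) gave 2 with the lower filter, 273 with array weights and 369 with quality weights, and complete loss by sex (0) gave 444 and 510 with these weights. Without control replicate 3, over the genes tested with all libraries, the P301S effect, partial loss and complete loss by sex gave 290, 383 and 566. The cause was not tested. Allowing 1 mismatch took promoters with the response element from 17 to 29.

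No paired analysis was possible because each mouse has its own number and replicate numbers, given in accession order, pair no mice. Genes near 1 RPKM rest on few reads, which limits what 4 mice can show.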
